A study of Mus musculus with 10 samples.

Results

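CD26+ and CD26- normal fibroblasts (NFs) of the mouse mammary gland were compared in 3 collagen-rich gels in which both subsets had been grown side by side. The comparison held 6 of the 10 RNA-seq libraries of the series, 1 library of each subset from gels 1, 4 and 5. NFs came from pooled glands of 8-week-old female mTmG mice, whose cells carry a red Tomato reporter that Cre recombinase switches to green GFP. They were sorted as EpCAM-/CD49f-/CD45-/CD31- cells, split by CD26, and cultured on plastic for 1 week. CD26+ NFs were then turned GFP-positive with an adenovirus that carries Cre, whereas CD26- NFs stayed Tomato-positive. The virus was thus given to 1 subset only, and an effect of the virus or of the reporter cannot be told apart from the subset. Gel 1 held the NF mixture alone. Gel 4 also held 13-MCB-17 and gel 5 held 10-SJK-221, tumor cells from invasive lobular carcinomas of WapCre;Cdh1F/F;PtenF/F mice, and after 7 days the gels were dissolved and NFs were sorted again by color. Gels 2 and 3 held each tumor line alone and served here only to show which genes tumor cells express.

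CD26, encoded by Dpp4, is a cell-surface peptidase that marks fibroblasts lying in the outer, interstitial layers of many tissues. Fibroblasts build the extracellular matrix, pull on it with an actomyosin apparatus that TGF-beta signaling sustains, and release growth factors and immune mediators. The groups of genes below follow these functions.

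Each library held 14142334 to 17376216 counts, and a count of 3 in 1 library corresponded to 0.183 to 0.205 CPM (counts scaled to a common library size). All levels below are CPM scaled by TMM, a factor that corrects for differences in library composition, and they compare 1 gene between libraries, not different genes. The first principal component (75.7% of the variance) set gel 1 apart from gels 4 and 5, and the second (12.6%) set the CD26+ apart from the CD26- library of each gel. Differences were tested with edgeR's quasi-likelihood method with gel as a block, so that each CD26+ library was set against the CD26- library of its own gel (n = 3 gels, 2 residual degrees of freedom). Of 14179 genes tested, 1225 (8.64%) passed an adjusted p of 0.05, 618 (4.36%) higher and 607 (4.28%) lower in CD26+ NFs, and these are the background for every count below. Of all genes tested, 24.5% were higher and 23.7% lower in the CD26+ library of every gel, the background for counts of genes that pointed 1 way in every gel. Large changes were mostly gains: of 130 called genes that differed by more than 2 on the log2 scale, 121 were higher in CD26+ NFs. The count depended on the gels used, and a fit without a gel has 1 residual degree of freedom. Without gel 5, 17 of the 1225 genes were called, although 1223 kept their direction. Without gel 1, 1146 of them were still called, and without gel 4, 809.

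The labels were checked against marker genes. Dpp4 itself had 0, 0 and 1 counts in CD26- NFs and 4, 12 and 4 counts in CD26+ NFs (gels 1, 4 and 5), so every CD26+ library lay above every CD26- library, at levels near the detection limit. It was below the filter on low counts, and with no filter it did not pass edgeR's test (log2 fold change 3.80, adjusted p = 0.155). Of 20 tested markers of CD26+ fibroblasts and stromal progenitors, 5 were higher and 2 lower in the CD26+ libraries. Fbn1 was 1 of the 2 lower ones (log2 fold change -1.01). Summed over the 24 listed markers, the CD26+ library held less in each gel. The sums of CD26- against CD26+ NFs were 22000 against 13900, 30500 against 22100 and 38100 against 19700 CPM. Pi16 was higher (6.22 against 12.4 CPM in gel 1, 5.65 against 20.9 in gel 4 and 3.73 against 13.8 in gel 5), as was Ackr3, a scavenger receptor of CXCL12 (log2 fold change 1.10, adjusted p = 0.00473). Of 19 markers of CD26- fibroblasts, 6 were higher and 3 lower in CD26+ NFs, with Col18a1 and Sparcl1 among the higher and Col15a1 among the lower. Neither marker list therefore separated the cultured subsets in 1 direction. Col1a1 and Pdgfra, which define fibroblasts, were high in every library (at least 7460 and 413 CPM), and of 13 tested fibroblast identity genes 1 was higher and 2 were lower. Ptprc, the pan-leukocyte marker CD45, stayed at or below 0.0635 CPM. Adgre1 and Tyrobp were at 0 in all libraries. Of 5 tested leukocyte genes Cd68 was higher (3.56 against 6.12, 33.5 against 50.7 and 21.5 against 31.2 CPM), and the 11 leukocyte genes summed to 14 against 15.5 CPM in gel 1, 57.2 against 72.4 in gel 4 and 41.8 against 51.8 in gel 5. Of 5 tested endothelial genes Kdr was higher, and the list summed to 6.73 against 11.8, 21.6 against 35.3 and 21.3 against 28.5 CPM. Both sums were thus higher in the CD26+ library of each gel, and their part in the immune and vascular genes below was not tested. Of 4 Schwann cell genes none passed the test.

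Epithelial genes were read as a measure of tumor cell RNA. Epcam was at 0 in both libraries of gel 1, at 6.65 CPM in CD26- and 7.96 CPM in CD26+ NFs of gel 4, and at 7.85 and 15.4 CPM in gel 5. The summed level of the 21 epithelial genes was 142 against 195 CPM in gel 4 and 182 against 350 CPM in gel 5, compared with 5200 and 6600 CPM in tumor cells grown alone, and 3.3 against 5.79 CPM in gel 1. Of 16 tested epithelial genes, 4 were higher in CD26+ NFs (Krt8, Krt18, Spint2 and Cldn3), and Elf5 was at 0 in every library. The sum was thus higher in the CD26+ library of every gel, gel 1 included, and the part of tumor RNA in genes that tumor cells express at a high level was not tested. Gel 1 held no tumor cells, and its values are given with those of gels 4 and 5 wherever levels are printed.

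Below, levels are given in the order CD26- against CD26+ NFs. The genes that differed most included acute-phase and metal-binding proteins on the high side and matrix, contractile and signaling genes on the low side. Saa3 (chr7:46711998-46715700), a serum amyloid A protein that fibroblasts and macrophages make during inflammation, stood at 45.4 against 381 CPM in gel 1, 31.8 against 502 in gel 4 and 26.7 against 576 in gel 5 (log2 fold change 3.83, SE 0.25, adjusted p = 0.00031). Mt1 (chr8:94179082-94180327), a metallothionein that binds zinc and copper, stood at 86.1 against 1007 CPM in gel 1, 222 against 2621 in gel 4 and 187 against 3523 in gel 5 (log2 fold change 3.78, SE 0.191, adjusted p = 0.000101). In both genes every CD26+ library lay far above every CD26- library. Lcn2, a siderophore-binding protein, was higher in all gels (0.508 against 6.72, 22 against 164 and 18.2 against 135 CPM), but tumor cells alone held 436 and 476 CPM, so the values of gels 4 and 5 include an unknown tumor share. In gel 1, where no tumor cells were present, the CD26+ library held 6.72 CPM against 0.508.

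Several other abundant genes were higher in CD26+ NFs. Igfbp3, which binds insulin-like growth factors, stood at 95 against 341 CPM in gel 1, 128 against 487 in gel 4 and 199 against 1103 in gel 5 (log2 fold change 2.08, SE 0.159, adjusted p = 0.00054). Dpt, a matrix protein of interstitial fibroblasts, was far lower in gels 4 and 5 than in gel 1 but higher in the CD26+ library of each gel (160.2 against 445, 3.95 against 13.4 and 5.7 against 25.1 CPM). Resf1, a regulator of retroelement silencing, was at 59.6 against 151, 50.6 against 229.5 and 49.3 against 160.0 CPM. Igfbp3 and Resf1 showed no overlap between the subsets, whereas the Dpt values overlapped between gel 1 and gels 4 and 5. Selenop, which carries selenium, and Cp, the copper-binding ferroxidase ceruloplasmin, differed more in gels 4 and 5 and are described with the gel-dependent genes.

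On the low side, Cxcl14 (chr13:56288643-56296551), a chemokine, stood at 1773 against 442 CPM in gel 1, 1275 against 179.5 in gel 4 and 1177 against 229.8 in gel 5 (log2 fold change -2.40, SE 0.18, adjusted p = 0.00054). Ltbp2 (chr12:84783212-84876532), a microfibril protein of the latent TGF-beta binding family, was at 1590 against 515, 1745 against 621 and 1661 against 594 CPM (log2 fold change -1.53, SE 0.136, adjusted p = 0.00119). Timp3, an inhibitor of matrix metalloproteinases that stays bound to the matrix, was at 805 against 296, 684 against 318 and 808 against 286 CPM. In each of these 3 genes all CD26- libraries exceeded all CD26+ libraries. Piezo2, a mechanically gated ion channel, was lower as well (62.6 against 19.3, 119 against 53.5 and 167 against 50.1 CPM), as were Fmod, a collagen-binding proteoglycan (702 against 163, 51 against 18.5 and 64.2 against 27.1 CPM), and Lrrc15 (129 against 61.9, 696 against 218 and 875 against 270.1 CPM). Tagln and Mylk, both contractile, complete the 8 lowest abundant genes and are described with their group.

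**Figure D1:**
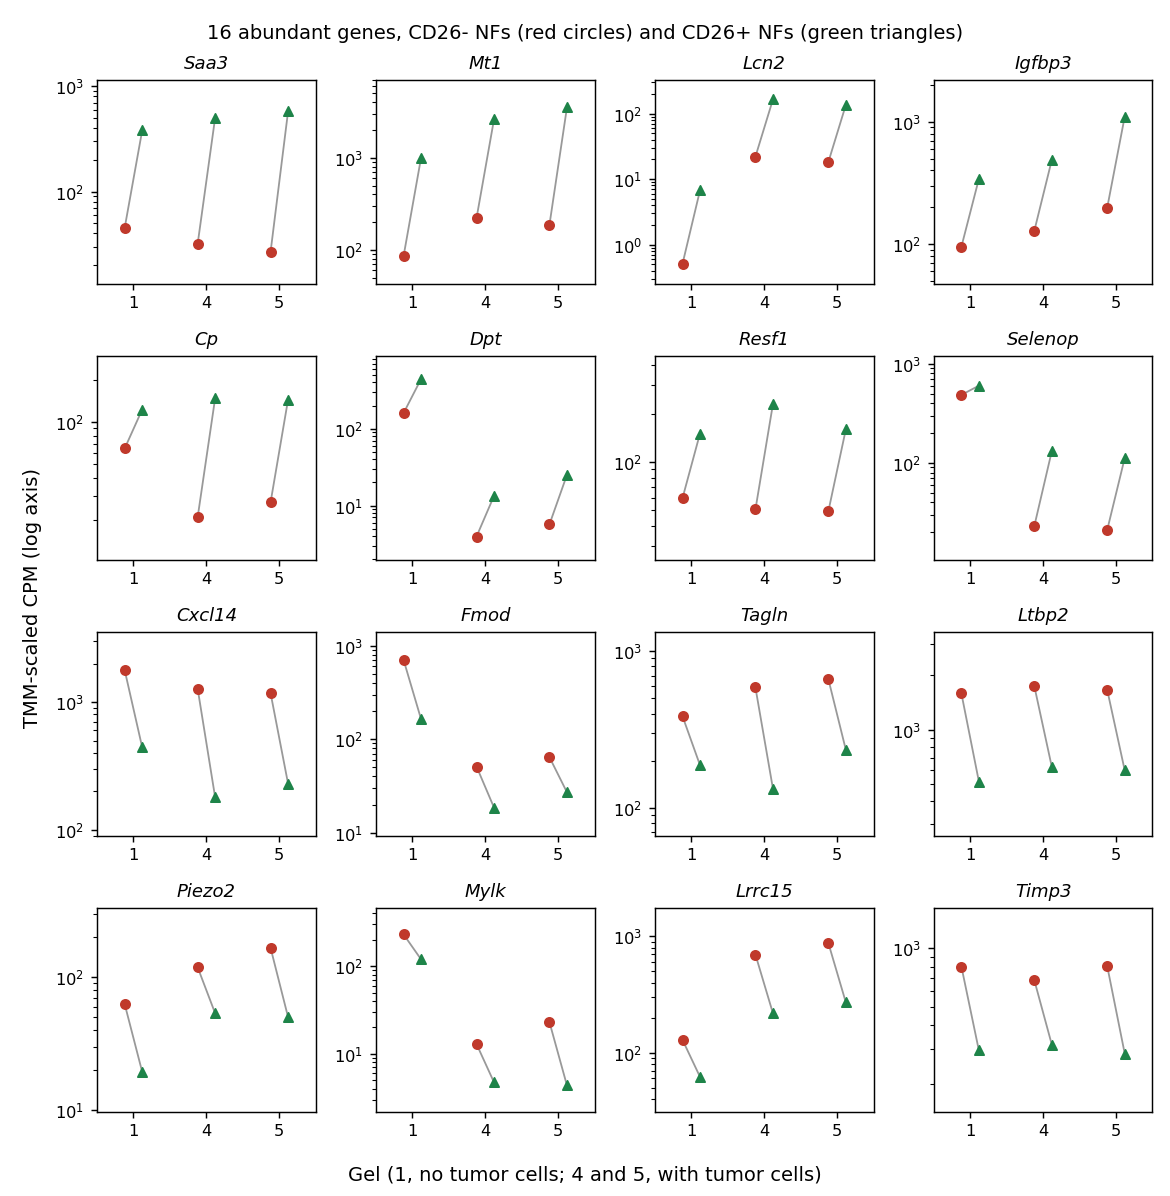
TMM-scaled CPM (log axis, range set per panel) of 16 abundant genes, the 8 that were most raised and the 8 that were most reduced in CD26+ NFs, in gels 1, 4 and 5. Red circles are CD26- NFs, green triangles CD26+ NFs and grey lines join the 2 libraries of a gel. The 3 lines of a gene slope the same way because the choice of genes required it.

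Among genes of intermediate level (a mean of 5 to 50 CPM), Sprr1a, a cornified envelope protein, was higher in CD26+ NFs (0.0635 against 0.856, 2.32 against 29.7 and 0.759 against 17.8 CPM, log2 fold change 4.00, SE 0.282, adjusted p = 0.000431), as was Pcdh9, a protocadherin (1.78 against 12.6, 1.13 against 16.7 and 0.633 against 14.4 CPM). S100a8 (0 against 0.198, 4.52 against 28.8 and 2.4 against 31 CPM) and Tfap2a, a transcription factor (0.254 against 4.67, 1.69 against 10.6 and 1.71 against 15 CPM), were higher too. Both are expressed by tumor cells alone, at 37 to 169 and 73.9 to 102 CPM. The lowest were Tmem204 (2.48 against 0.658, 16.8 against 1.95 and 32.4 against 5.06 CPM), Syt5, a synaptotagmin (0.508 against 0, 18.1 against 2.92 and 24.1 against 6.77 CPM), Aldh1a3, an enzyme of retinoic acid synthesis (22.7 against 5.14, 24.4 against 6.63 and 49.5 against 9.3 CPM), the smooth muscle actin Actg2 (28.9 against 11.7, 11.3 against 2.01 and 20.4 against 3.56 CPM) and Hmcn1, a hemicentin of the matrix (151 against 29.2, 32.6 against 15.1 and 51.8 against 11.6 CPM). The choice of these genes required 1 direction in all gels.

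The comparison was then read across 44 gene lists, of which 41 had at least 1 called member. The share called in 1 direction ran from 0% to 66.7% of tested members, against 4.36% higher and 4.28% lower among all genes. The median difference was positive in all 3 gels in 10 lists and negative in all 3 gels in 15. Without gel 5 no member was called in 38 of the 44 lists, and at most 3 were in any. Without gel 4 the count fell by more than 1.5 times in the interferon-stimulated, contractile, elastic fiber, fibrillar collagen and matricellular lists, as given with each, and in 7 lists with 2 to 4 calls. Counts rose in other cases when gel 1 was left out, for example to 11 in the IGF, 10 in the basement membrane, 8 in the Notch and 6 in the chemokine list.

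**Figure D2:**
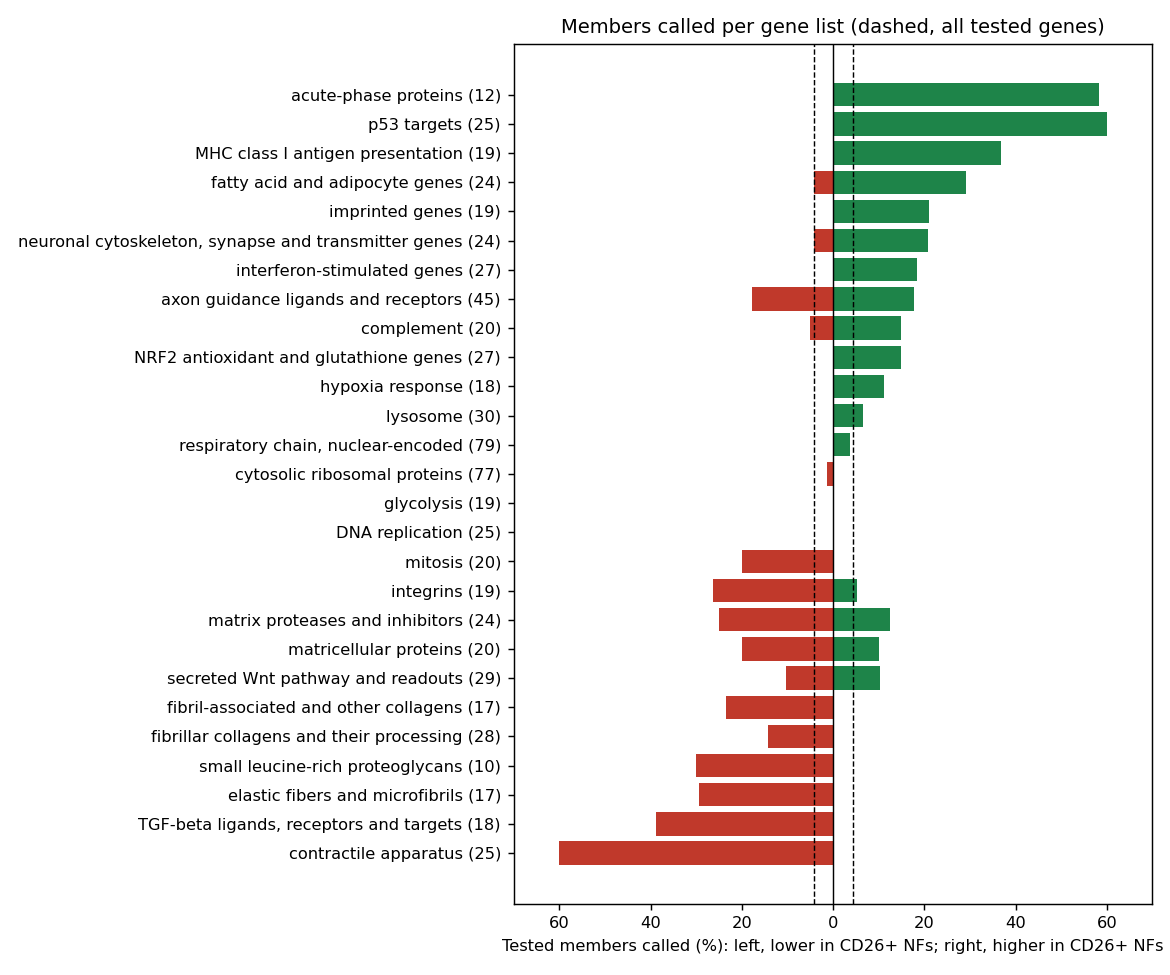
Share of tested members (in brackets) called in CD26+ against CD26- NFs for 27 gene lists, higher to the right and lower to the left, in percent. The dashed lines mark 4.36% and 4.28%, the shares among all tested genes. The acute-phase and p53 lists reach furthest to the right and the contractile list furthest to the left.

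**Figure D3:**
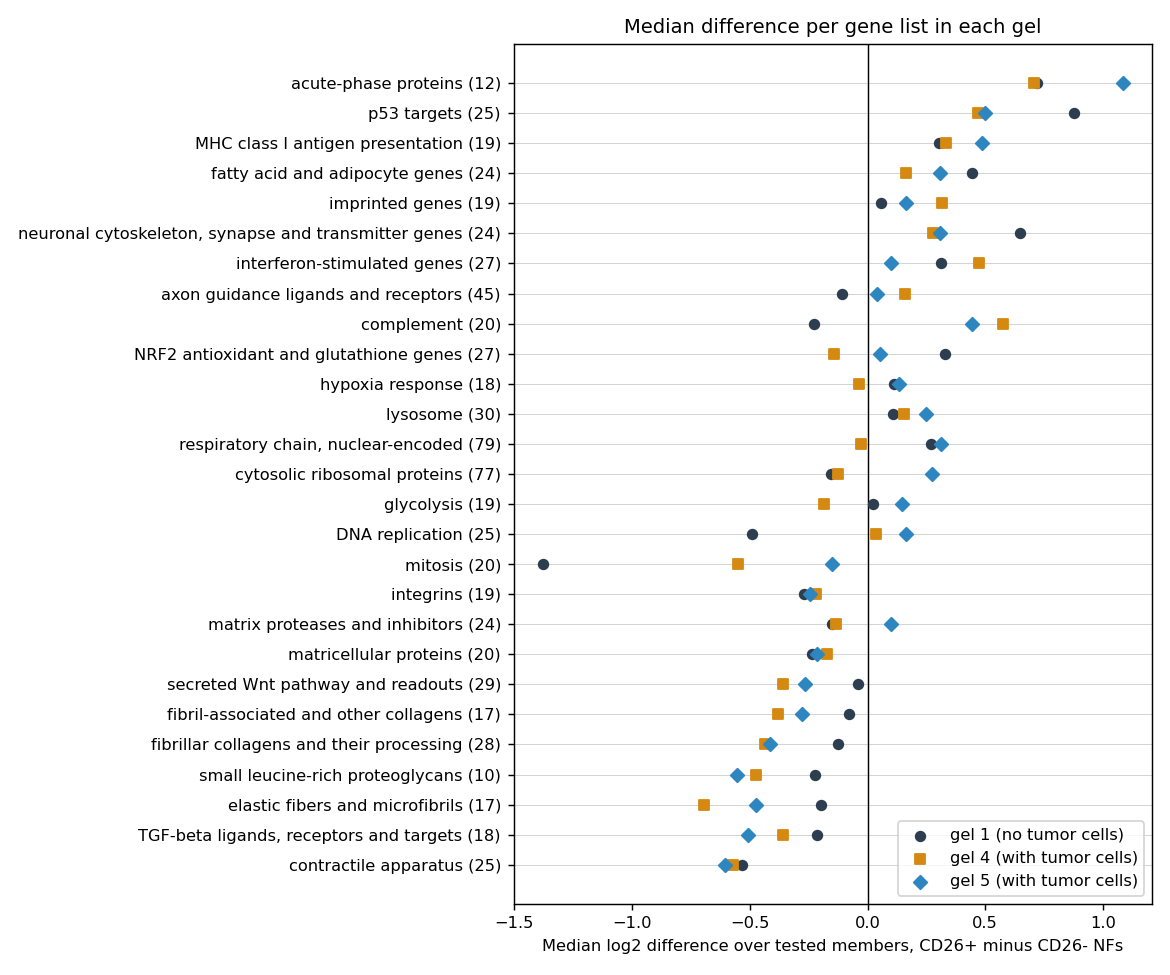
Median log2 difference (CD26+ minus CD26- NFs) over the tested members of the same 27 lists, 1 symbol for each gel. The acute-phase, p53 and MHC class I medians lie above 0 and the contractile, TGF-beta and elastic fiber medians below 0 in every gel, whereas complement and DNA replication change sign between gels.

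Acute-phase proteins are plasma proteins whose synthesis climbs in inflammation. Of 12 tested genes of this group 7 were higher in CD26+ NFs and none was lower (4 calls when culture replaced gel in the fit), with a median log2 fold change of 1.34 (medians of 0.72, 0.71 and 1.09 in gels 1, 4 and 5). Besides Saa3, Lcn2 and Cp, the group included Hp, haptoglobin, which binds free hemoglobin, at 4.32 against 40.0 CPM in gel 1, 0.439 against 6.87 in gel 4 and 1.33 against 6.9 in gel 5 (log2 fold change 3.10, SE 0.275, adjusted p = 0.00119). The called members were also Agt, Ptx3 and Serpina3n. They were higher in all 3 gels except Agt, angiotensinogen, which had no counts in the CD26+ library of gel 4. Without gel 5, Saa3, Lcn2 and Hp were still called. The 3 liver fibrinogen genes were listed at or near 0 throughout. Saa1 and Saa2, which are close copies of each other, were below 3 CPM in every library.

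Genes of MHC class I antigen presentation, which display cytosolic peptides to CD8 T cells, also held higher calls only. Of 19 tested, 7 were higher and none was lower (median 0.33, with 0.30, 0.33 and 0.49 by gel). Nlrc5, the transactivator of MHC class I genes, stood at 0.826 against 5.6 CPM in gel 1, 0.878 against 3.53 in gel 4 and 0.759 against 3.15 in gel 5 (log2 fold change 2.27, SE 0.357, adjusted p = 0.00948). The heavy chain H2-D1 was at 153 against 261, 409.8 against 620.5 and 390.5 against 688 CPM (log2 fold change 0.73, adjusted p = 0.0134), and H2-Q4 (4.26 against 16.1, 29.4 against 57.9 and 28.5 against 65.3 CPM) and H2-Q7 (0.254 against 1.51, 21.8 against 45.7 and 19.8 against 41 CPM) were higher as well. The H2-Q genes are near-identical copies, so reads may be split between them. In H2-D1 the subsets overlapped across gels, since both subsets held more of it in gels 4 and 5 than in gel 1, but the CD26+ library was the higher one in each gel. Among 17 genes of this list with a RefSeq promoter window, 5 held the interferon-stimulated response element (GAAA, 2 bases, GAAA on either strand, as for all motifs here), or 29.4%, against 3.99% of all genes in the promoter table. These were H2-T22, H2-T23, B2m, Psme1 and Erap1, and none of them is Nlrc5, H2-D1, H2-Q4 or H2-Q7. The share covers called and uncalled members and does not show binding.

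Of 27 interferon-stimulated genes 5 were higher and none was lower (median 0.22, 2 calls without gel 4). Bst2, or tetherin, which holds budding virus at the cell surface, was at 13.2 against 25.6 CPM in gel 1, 18.1 against 36.9 in gel 4 and 12 against 30.1 in gel 5 (log2 fold change 1.10, adjusted p = 0.00473). Oasl1 (0.445 against 4.41, 2.82 against 9.85 and 1.71 against 9.84 CPM), Usp18, a brake on interferon receptor signaling (3.05 against 9.02, 0.878 against 2.92 and 1.14 against 2.8 CPM), and Trim30a (5.91 against 11.5, 1.57 against 7.66 and 2.66 against 5.88 CPM) were higher too. The rest of the list, 22 genes, did not pass the test. In the complement list 3 of 20 genes were higher and 1 was lower (1 call in all when culture replaced gel in the fit). C4b (316 against 561, 4.08 against 8.82 and 9.75 against 14.6 CPM), the complement-restraining surface protein Cd55 (11.1 against 45.8, 8.66 against 20.6 and 6.96 against 10.7 CPM) and Clu (2.86 against 14.9, 23.8 against 44.9 and 13.5 against 25.5 CPM) were higher, and Serping1, the C1 inhibitor, was lower (2192 against 1204, 2423 against 1581 and 2968 against 2075 CPM). Tumor cells held 87.0 and 68.1 CPM of Clu when grown alone and 1063 and 496 CPM in gels 4 and 5. The part of tumor RNA in the Clu values of these gels was not tested. The median of the complement list was negative in gel 1 (-0.23) and positive in gels 4 and 5 (0.58 and 0.44).

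NF-kB feedback genes and targets split evenly, 2 higher and 2 lower of 23. Icam1, an adhesion molecule for leukocytes, stood at 40.8 against 99.3 CPM in gel 1, 18.9 against 49.5 in gel 4 and 11.8 against 33.3 in gel 5 (log2 fold change 1.39, SE 0.123, adjusted p = 0.00119), and Bcl3 was also higher (29.6 against 46, 18.3 against 22.2 and 13.9 against 25.4 CPM, log2 fold change 0.59, adjusted p = 0.0438), with 43.5 and 26.5 CPM in tumor cells alone. Csf1, the growth factor of macrophages, was lower (1612 against 1169, 855 against 335 and 841 against 345 CPM), as was Il1rl1, the receptor of IL-33 (241 against 224, 429 against 167 and 246 against 104 CPM). Of 16 chemokines other than Cxcl12, 1 was higher (Ccl8, 39.3 against 54.5, 28 against 79.5 and 28.7 against 108 CPM) and 1 was lower (Cxcl14). Of 14 prostaglandin genes Hpgd, which degrades prostaglandins, was higher (10.8 against 25.8, 0.0628 against 2.8 and 0.0633 against 1.64 CPM) and Ptgir, the prostacyclin receptor, was lower (14.5 against 9.55, 30.2 against 22.2 and 30.6 against 19.8 CPM). The immune genes thus did not move as 1 block: the acute-phase, MHC class I and interferon-stimulated lists held higher calls only, and the complement, NF-kB, chemokine and prostaglandin lists held calls in both directions. With genes left out that tumor cells alone expressed more highly than NFs, 5 of 8 acute-phase, 5 of 13 MHC class I and 0 of 6 interferon-stimulated genes were called.

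The p53 protein is a transcription factor that DNA damage and other stresses stabilize, and its targets arrest the cell cycle, repair DNA or start apoptosis. Of 25 tested targets 15 were higher and none was lower in CD26+ NFs, and 20 were higher in every gel. The median was 0.67, with 0.88 in gel 1, 0.47 in gel 4 and 0.50 in gel 5. Gdf15, a secreted stress factor, stood at 2.92 against 14.4 CPM in gel 1, 10.1 against 29.4 in gel 4 and 6.64 against 21.5 in gel 5 (log2 fold change 1.81, SE 0.19, adjusted p = 0.00207). Trp53inp1 (77.8 against 178, 80.0 against 189.6 and 58.2 against 91.6 CPM), the cyclin G gene Ccng1 (199 against 448, 186 against 336 and 155 against 264 CPM) and Pmaip1, the proapoptotic protein Noxa (11.6 against 37.7, 53.5 against 111 and 56.5 against 91.8 CPM), were higher in all gels. Cdkn1a, the cell cycle inhibitor p21, and Mdm2, which degrades p53, were chosen after their values were seen and stood at 284 against 669.7, 548 against 755 and 448 against 772 CPM and 139.8 against 366, 208 against 346 and 187 against 284 CPM. Not every target moved: Btg2 (-0.02), Ddb2 (0.06) and Rrm2b (-0.63) did not pass the test. Summed over the list, CD26+ NFs held 1.88, 1.41 and 1.37 times the level of CD26- NFs in gels 1, 4 and 5. Tumor cells alone held 3830 and 3160 CPM over the list, against 1730 to 2010 CPM in CD26- and 2460 to 3260 CPM in CD26+ NFs, and Ccng1 for example was at 542 and 506 CPM in them. Of the 7 targets that tumor cells did not express more highly than NFs 5 were called, and the part of tumor RNA in gels 4 and 5 was not tested. In gel 1, without tumor cells, the list summed to 1730 against 3260 CPM.

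Promoter windows of 250 bases before to 50 after the start were found in RefSeq (GRCm38.p6) for 17 of the 25 targets. A pair of p53 half-sites up to 13 bases apart occurred in 1 of these genes, Cdkn1a, at an alternative start, and in 0.074% of all genes in the table. Single half-sites, a looser search added after the pair had been counted, occurred in 7 of the 17 genes (41.2%), against 9.55% of all genes. The 250 bases before the start of 3 of them are shown to place these matches, with every match in capitals.
Cdkn1a (chr17:29090729-29090978, plus strand; match beginning 73 bases before the start): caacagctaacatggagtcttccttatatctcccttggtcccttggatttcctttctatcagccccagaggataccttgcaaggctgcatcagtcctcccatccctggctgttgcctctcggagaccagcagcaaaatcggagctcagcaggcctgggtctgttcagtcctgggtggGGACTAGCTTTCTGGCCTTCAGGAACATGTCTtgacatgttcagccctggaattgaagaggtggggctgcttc
Mdm2 (chr10:117710759-117711008, minus strand; match beginning 186 bases before the start): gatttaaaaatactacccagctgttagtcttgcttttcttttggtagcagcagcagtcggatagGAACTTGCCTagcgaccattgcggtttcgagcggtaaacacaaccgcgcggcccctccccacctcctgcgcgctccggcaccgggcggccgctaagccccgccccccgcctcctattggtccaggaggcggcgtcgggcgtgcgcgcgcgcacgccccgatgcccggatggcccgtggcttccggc
Ccng1 (chr11:40755287-40755536, minus strand; match beginning 185 bases before the start): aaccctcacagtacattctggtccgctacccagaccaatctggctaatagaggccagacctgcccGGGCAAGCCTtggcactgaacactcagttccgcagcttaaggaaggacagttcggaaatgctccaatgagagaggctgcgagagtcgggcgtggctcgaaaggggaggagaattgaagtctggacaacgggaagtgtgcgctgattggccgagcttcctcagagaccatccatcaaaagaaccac
These letters are a description of the windows and do not show binding. Sesn1 and Polk also hold a half-site and were not called, whereas Gdf15 and Fas hold none in this window and were.

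Of 20 tested mitosis genes none was higher and 4 were lower, or 2 when culture replaced gel in the fit, and the fitted value was negative for all 20, with 13 lower in every gel. The median difference was -1.38 in gel 1, -0.55 in gel 4 and -0.15 in gel 5. Mki67, the proliferation marker Ki-67, stood at 45.1 against 12.2 CPM in gel 1, 10.7 against 4.56 in gel 4 and 18 against 7.38 in gel 5 (log2 fold change -1.49, SE 0.182, adjusted p = 0.00428). Cenpe, a kinetochore motor, was at 18 against 6.78, 4.39 against 3.04 and 7.91 against 3.49 CPM (log2 fold change -1.07, adjusted p = 0.0301), Top2a, which untangles DNA, at 52.9 against 20.1, 16.6 against 10.6 and 27.5 against 20.2 CPM (log2 fold change -0.84, adjusted p = 0.0324), and the cyclin Ccna2 at 17 against 5.99, 4.02 against 2.31 and 7.47 against 5.2 CPM (log2 fold change -0.96, adjusted p = 0.0484). The list summed to 315 against 127 CPM in gel 1, 112 against 84.8 in gel 4 and 168 against 137 in gel 5, compared with 1480 and 2050 CPM in tumor cells alone, and the part of tumor RNA in gels 4 and 5 was not tested. DNA replication genes gave no call among 25, and their median was -0.49 in gel 1 but 0.04 and 0.16 in gels 4 and 5.

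**Figure D4:**
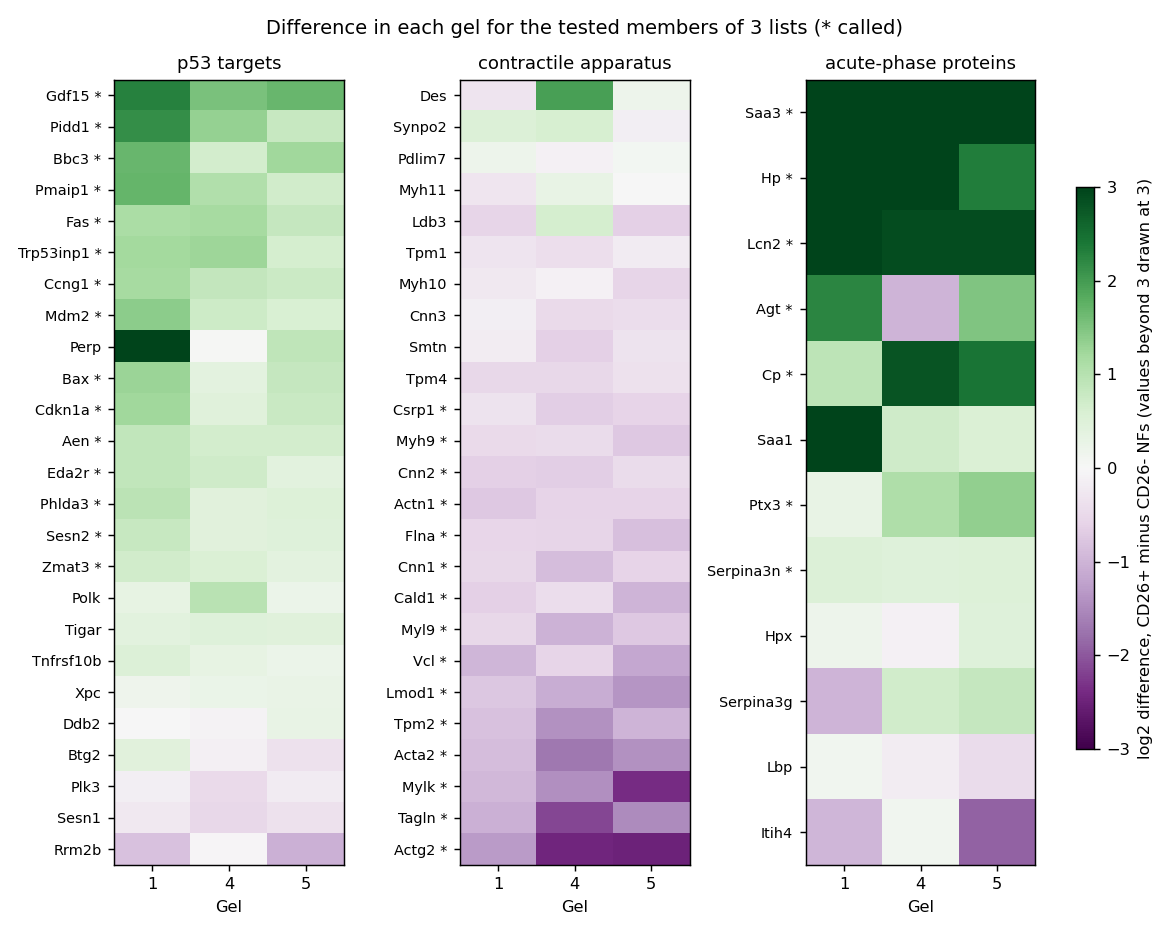
Log2 difference (CD26+ minus CD26- NFs) of every tested member of the p53, contractile and acute-phase lists in gels 1, 4 and 5, green for higher and purple for lower, drawn up to 3 in either direction. Asterisks mark the 15, 15 and 7 called genes. Most of the p53 column is green and most of the contractile column purple in every gel.

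The contractile apparatus, actin filaments with myosin and the proteins that anchor them, held lower calls only. Of 25 tested members 15 were lower and none was higher (9 calls without gel 4 and 0 without gel 5), 20 were lower in every gel, and the median was -0.53, -0.57 and -0.61 in gels 1, 4 and 5. Acta2, alpha smooth muscle actin, stood at 588 against 321 CPM in gel 1, 246 against 75.9 in gel 4 and 396 against 147 in gel 5 (log2 fold change -1.33, SE 0.168, adjusted p = 0.00473). Tagln, transgelin, was at 385 against 188, 587 against 133 and 664 against 235 CPM (log2 fold change -1.56, adjusted p = 0.00473), although 67.9% of its exonic bases overlap the gene model Gm48529 and a share of the reads may belong to either. Tpm2, a tropomyosin, was at 154 against 86.5, 144 against 53.6 and 151 against 75.8 CPM (log2 fold change -1.08, adjusted p = 0.00496), and Mylk, the kinase that activates smooth muscle myosin, at 229 against 119, 12.9 against 4.74 and 23 against 4.38 CPM (log2 fold change -1.50, adjusted p = 0.00969). The summed level of the list in CD26+ NFs was 0.671, 0.657 and 0.598 of that in CD26- NFs. Smooth muscle myosin Myh11 (0.00), Des (0.71) and Pdlim7 (0.06) did not pass the test. Pericytes share the contractile genes. Over the 9 pericyte genes the sum was 81.4 against 101 CPM in gel 1, 590 against 329 in gel 4 and 832 against 449 in gel 5, with 1 of 8 tested genes called lower (Mcam, 2.67 against 3.1, 49.3 against 15.4 and 114 against 37.2 CPM), which DESeq2 did not call (adjusted p = 0.263). Rgs5 was at 1.95 to 9.46 CPM and Higd1b at 0 in all libraries. The part of pericytes in the contractile genes was not tested.

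The CArG box, to which serum response factor binds, occurred in 4 of 22 contractile genes with a promoter window (18.2%), against 1.81% of all genes. The TEAD motif GGAATG occurred in 9 (40.9%), against 16.6%. Both shares cover called and uncalled members of the list and do not show binding. Among the 4 genes with a CArG box, Cnn2, Myl9 and Vcl were lower in CD26+ NFs (-0.59, -0.75 and -0.90), and Ldb3 was not called. Their windows are shown because 3 called genes share the element, in capitals, at different distances from the start (GRCm38.p6).
Myl9, a myosin light chain (chr2:156775214-156775463, plus strand; 161 bases before the start): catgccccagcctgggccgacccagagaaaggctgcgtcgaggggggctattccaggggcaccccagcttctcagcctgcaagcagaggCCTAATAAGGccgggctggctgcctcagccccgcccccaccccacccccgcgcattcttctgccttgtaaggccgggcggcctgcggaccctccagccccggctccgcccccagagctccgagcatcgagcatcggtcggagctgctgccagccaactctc
Cnn2, a calponin (chr10:79988350-79988599, plus strand; 56 bases before the start): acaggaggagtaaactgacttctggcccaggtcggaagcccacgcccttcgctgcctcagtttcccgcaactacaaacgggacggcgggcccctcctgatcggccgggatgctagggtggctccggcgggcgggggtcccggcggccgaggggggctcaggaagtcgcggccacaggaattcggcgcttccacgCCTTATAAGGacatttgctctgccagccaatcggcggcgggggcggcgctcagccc
Vcl, vinculin (chr14:20929148-20929397, plus strand; 227 bases before the start): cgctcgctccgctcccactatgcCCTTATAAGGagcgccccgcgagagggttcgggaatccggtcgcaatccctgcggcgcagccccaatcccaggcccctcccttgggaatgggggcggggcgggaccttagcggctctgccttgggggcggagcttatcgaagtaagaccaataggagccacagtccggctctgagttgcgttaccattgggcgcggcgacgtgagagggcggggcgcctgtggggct
Acta2 and Cnn1 have no CArG box by this definition in their windows.

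TGF-beta is the main inducer of contractile and matrix genes in fibroblasts. Of 18 tested ligands, receptors and targets of its pathway 7 were lower and none was higher, and 12 were lower in every gel (medians of -0.22, -0.36 and -0.51). With genes left out that tumor cells alone expressed more highly than NFs, 3 of 12 were called. Among the ligands, Inhba, which forms activin A, stood at 289.9 against 112 CPM in gel 1, 3465 against 1949 in gel 4 and 4986 against 2080 in gel 5 (log2 fold change -1.15, SE 0.163, adjusted p = 0.00644), and Tgfb3 was at 128 against 90.2, 94.6 against 40.9 and 130.4 against 68.5 CPM (log2 fold change -0.88, adjusted p = 0.013). The receptor Tgfbr1 (113 against 73.7, 108 against 86.5 and 158 against 84 CPM) and the target and feedback inhibitor Pmepa1 (185 against 158, 357 against 161 and 421 against 238 CPM) were lower as well. Tgfb2, Lrrc32 and Skil complete the called members. In Inhba both subsets held far more in gels 4 and 5 than in gel 1, and within each gel the CD26- library was the higher one.

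Integrins, the receptors by which cells hold the matrix, were lower in 5 of 19 cases and higher in 1. Itga9 (84.7 against 49.6, 48.9 against 22.2 and 66.8 against 25.5 CPM), Itga1, a collagen receptor (127 against 49.9, 264 against 164 and 442 against 237 CPM), and the fibrillar collagen receptor Itga11 (448 against 298, 317 against 193 and 489 against 295 CPM) were lower. Itga2 was higher (2.86 against 11.8, 25.2 against 71.2 and 35.2 against 70.3 CPM, log2 fold change 1.44, adjusted p = 0.00473), and tumor cells alone held 285 and 338 CPM of it. In gel 1 the CD26+ library held 11.8 CPM of Itga2 against 2.86.

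The number of extracellular matrix genes called depended on the gels used. Without gel 1, 14 genes of elastic fibers, 15 of fibrillar collagens, 11 of other collagens, 6 of small proteoglycans and 11 of matricellular proteins were called, without gel 4, 3, 1, 3, 2 and 2, and without gel 5, 0, 0, 0, 1 and 0. With all 3 gels, among 17 genes of elastic fibers and microfibrils 5 were lower and none was higher, and 11 were lower in every gel (median -0.47). Besides Ltbp2, these were Fbn1, the main protein of microfibrils (3561 against 2123, 1682 against 931 and 2653 against 972 CPM), Ltbp4 (63.3 against 41.4, 178 against 108 and 166 against 112 CPM) and Mfap4 (102 against 75.9, 57.2 against 33 and 44.5 against 30.4 CPM), with log2 fold changes of -1.01, -0.64 and -0.59, and Fbln2 completes the called members. Small leucine-rich proteoglycans, which organize collagen fibrils, were lower in 3 of 10 cases: Fmod, Prelp (550.2 against 359.6, 77.6 against 58.5 and 101 against 58.3 CPM) and Bgn, biglycan (13983 against 8969, 13865 against 7586 and 15444 against 8930 CPM). Fibrillar collagens and their processing enzymes held 4 lower and no higher calls of 28 (1 call when culture replaced gel in the fit), with 15 lower in every gel and a median of -0.31. Col1a2, a chain of type I collagen, was at 16740 against 12354 CPM in gel 1, 9180 against 4614 in gel 4 and 10968 against 5799 in gel 5 (log2 fold change -0.78, SE 0.186, adjusted p = 0.0369), Loxl3, which crosslinks collagen, at 411 against 277, 311 against 176 and 440.0 against 268 CPM, the procollagen protease Adamts2 at 1127 against 792, 283 against 193 and 434 against 268 CPM and the prolyl hydroxylase subunit P4ha3 at 142 against 102, 74.4 against 46.1 and 100.5 against 77.7 CPM. Col1a1 did not pass the test (18983 against 16292, 14854 against 7460 and 15122 against 9227 CPM, log2 fold change -0.64, adjusted p = 0.0853). In each of these called genes the CD26- library was the higher one in every gel, although the differences were below 1 on the log2 scale except for Ltbp2, Fmod and Fbn1.

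Of 17 other collagens 4 were lower and none was higher: Col8a2 (109 against 46.8, 4.83 against 1.82 and 2.97 against 1.64 CPM), Col12a1, which coats collagen fibrils (2417 against 1220, 3816 against 2366 and 4813 against 1881 CPM), Col23a1 (119 against 72.4, 69.2 against 47.1 and 73 against 55.4 CPM) and Col6a3 (2175 against 1741, 1950 against 1197 and 3948 against 1554 CPM). Basement membrane genes went both ways, 2 higher and 2 lower of 21. Col18a1 (102 against 192, 495 against 881 and 575 against 1011 CPM) and Col4a5 (63.1 against 91.1, 17.8 against 38 and 21.5 against 28.2 CPM) were higher, and the laminin chain Lama1 (16.6 against 5.14, 17.4 against 8.76 and 20.9 against 7.59 CPM) and Col15a1 (708 against 512, 1227 against 586 and 2069 against 903 CPM) were lower. Tumor cells alone expressed Col18a1 at 2010 and 1910 CPM and Col4a5 at 301 and 283 CPM. Both genes were higher in the CD26+ library of gel 1, a single pair of libraries. The part of tumor RNA in their values in gels 4 and 5 was not tested. Matricellular proteins, which signal from the matrix, were lower in 4 and higher in 2 of 20 cases. Ccn4 (135 against 84.5, 108 against 59 and 180.0 against 75.1 CPM) and thrombospondin Thbs1 (6164 against 4228, 4573 against 2611 and 5295 against 2420 CPM) were lower, and Ccn3 (305 against 449.8, 2.51 against 5.11 and 1.52 against 3.42 CPM) and Sparcl1 (34.1 against 40.7, 114 against 328 and 158 against 385 CPM) were higher.

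Matrix proteases and their inhibitors were called in 9 of 24 cases, 3 higher and 6 lower (5 calls when culture replaced gel in the fit), with a median near 0 (-0.01). Mmp12, a metalloproteinase that degrades elastin, was hardly present in gel 1 and higher in CD26+ NFs of gels 4 and 5 (0.381 against 0.263 CPM in gel 1, 42.8 against 143 in gel 4 and 37.1 against 153 in gel 5, log2 fold change 1.80, SE 0.218, adjusted p = 0.00417). The inhibitor Timp3 was lower, as was Mmp17 (17.9 against 9.22, 46.9 against 28.5 and 38.5 against 26.9 CPM). The DESeq2 test did not call Mmp12 (adjusted p = 0.188).

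Metal handling differed beyond Mt1. Mt2 was higher too (75.9 against 202 CPM in gel 1, 294 against 397 in gel 4 and 271 against 491 in gel 5, log2 fold change 0.90, adjusted p = 0.0231), although 73.5% of its exonic bases overlap the gene model Gm45774. The zinc importer Slc39a14 was lower (535 against 286, 297 against 212 and 394 against 262 CPM), so that of 12 metallothioneins and zinc transporters 2 were higher and 1 was lower. Of 16 iron genes 2 were higher, Slc40a1 and Cp, and 1 was lower, Heph. Slc40a1, ferroportin, the only known cellular iron exporter, stood at 7.05 against 19.1 CPM in gel 1, 17.7 against 50.3 in gel 4 and 19.8 against 48.4 in gel 5 (log2 fold change 1.41, SE 0.132, adjusted p = 0.00137). The copper-dependent ferroxidases went apart, with Cp higher and its homolog Heph lower (71.7 against 46.8, 356 against 200.5 and 271 against 117 CPM, log2 fold change -0.89, adjusted p = 0.0101).

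NRF2 antioxidant and glutathione genes were higher in 4 of 27 cases and lower in none, with a median of 0.07. The called genes were Gpx3, a secreted glutathione peroxidase (433 against 761, 137 against 236 and 142 against 262 CPM, log2 fold change 0.83, adjusted p = 0.00719), Gpx1 (78 against 95.3, 33.2 against 48.3 and 27.6 against 50.6 CPM), the transferase Gstm1 (50.4 against 70.2, 63.1 against 88.2 and 64.4 against 90.0 CPM) and glutathione reductase Gsr (23.8 against 29.1, 34.7 against 50.5 and 36.2 against 60.0 CPM). Their differences were small and present in every gel. Of 24 genes of the unfolded protein and amino acid stress response 1 was called, Ddit3 (CHOP), which was higher (24.1 against 44.6, 93.6 against 136 and 59.9 against 93.5 CPM, log2 fold change 0.69, adjusted p = 0.0153). The chaperones Hspa5 (1099 against 899.8, 2581 against 2992 and 1890 against 2075 CPM) and Hsp90b1 (990.1 against 879, 1339 against 1631 and 1342 against 1514 CPM) did not pass the test.

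Fatty acid and adipocyte genes were higher in 7 and lower in 1 of 24 cases (median 0.41, with 0.44, 0.16 and 0.31 by gel). Plin2, which coats lipid droplets, stood at 43.1 against 132 CPM in gel 1, 106 against 244 in gel 4 and 115 against 299 in gel 5 (log2 fold change 1.40, SE 0.129, adjusted p = 0.00133). The fatty acid-binding proteins Fabp4 (15.9 against 26.6, 8.85 against 36.2 and 11.9 against 48 CPM) and Fabp5 (5.34 against 11.8, 13 against 27.7 and 13 against 32.2 CPM) were higher, as was Apoe, a lipid carrier (115 against 199, 11.1 against 18.3 and 10.1 against 18.7 CPM). Cd36, a fatty acid transporter singled out after its values were seen, was at 0.508 against 1.19, 0 against 5.17 and 0 against 1.91 CPM (log2 fold change 3.87, adjusted p = 0.0477). The called member that was lower was Acaca, the enzyme that commits carbon to fatty acid synthesis (-0.61). Cholesterol genes were called in 1 of 25 cases (Hsd17b7, lower, 92.2 against 59.6, 48.4 against 31 and 60.4 against 29.2 CPM), and 15 of the 25 were lower in every gel, with a median of -0.21. Without gel 1, 7 of the 25 were called.

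Other metabolic groups differed little. Glycolysis gave no call among 19 genes, Pkm for example standing at 952 against 1026, 1964 against 1871 and 2051 against 2408 CPM (0.09). Of 18 hypoxia genes 2 were higher, Fam162a (40.1 against 60.4, 314 against 482 and 301 against 682 CPM) and Higd1a (27.3 against 33.2, 54 against 74.7 and 66.3 against 113 CPM). Lysosomal genes were higher in 2 of 30 cases, Gla (45.5 against 67.9, 97.6 against 143 and 80.5 against 142 CPM) and Atp6v0d1 (93 against 136, 69.9 against 92.8 and 75.1 against 109 CPM), and 17 of the 30 were higher in every gel (median 0.26). The nuclear-encoded respiratory chain had 3 higher calls of 79, or 3.8%, near the background. These were Ndufa13, Cox6a1 and Ndufs7 (0.64, 0.57 and 0.61). The 9 mitochondria-encoded genes gave none. Of 77 cytosolic ribosomal proteins only Rpl34 was called, lower in CD26+ NFs (251 against 165, 247 against 165 and 237 against 189 CPM).

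Genes better known from neurons were among the largest differences. Of 24 neuronal cytoskeleton, synapse and transmitter genes 5 were higher and 1 was lower (median 0.29). Nefm, a neurofilament, stood at 0.762 against 1.38 CPM in gel 1, 1.95 against 33.7 in gel 4 and 2.85 against 31.4 in gel 5 (log2 fold change 3.33, SE 0.436, adjusted p = 0.00497), Stmn2, a regulator of microtubules, at 0.508 against 6.25, 0.314 against 1.89 and 0.19 against 2.87 CPM (log2 fold change 3.36, adjusted p = 0.00524), and Svop, a synaptic vesicle protein, at 0.508 against 19.4, 0 against 1.46 and 0.127 against 0.82 CPM (log2 fold change 4.91, adjusted p = 0.0034). Gad1, which makes the transmitter GABA, had no counts in gel 1 and was at 1.76 against 55 CPM and 1.71 against 54.1 CPM in gels 4 and 5 (log2 fold change 4.96, adjusted p = 0.000101). In Stmn2 and Svop the CD26+ library was the higher one in every gel, whereas Gad1 was detected only in gels 4 and 5. Tumor cells alone held no more than 0.109 CPM of any of these 4 genes. Schwann cell genes, as a check on nerve tissue, summed to 7.62 against 8.23 CPM in gel 1, 5.33 against 8.82 in gel 4 and 3.73 against 8.54 in gel 5, higher in the CD26+ library of each gel, and their part in the neuronal genes was not tested.

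Axon guidance genes were called in both directions, 8 higher and 8 lower of 45, with a median of 0. The receptor Robo2 (2.03 against 14.2 CPM in gel 1, 1.63 against 7.42 in gel 4 and 1.46 against 6.49 in gel 5, log2 fold change 2.39, SE 0.261, adjusted p = 0.00239) and the ligand Sema3d (8.96 against 32.5, 0.314 against 1.46 and 0.127 against 0.82 CPM) were higher. The receptors Nrp1, which also binds VEGF (192 against 116, 114 against 51.1 and 175 against 68.4 CPM), and Epha3 (169.6 against 51.5, 8.03 against 4.26 and 16.4 against 2.19 CPM) were lower. The called semaphorins Sema3d, Sema3e, Sema3f and Sema4d were higher and Sema7a was lower, and the called Slit ligands Slit2 and Slit3 were both lower (-0.83 and -0.62). These families were singled out after their values were seen.

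Secreted signals changed without a common direction. In the Wnt group 3 genes were higher and 3 lower of 29, and 17 were called without gel 1. Sfrp1, a Wnt-binding antagonist, stood at 5187 against 2172 CPM in gel 1, 74.2 against 30.9 in gel 4 and 77.7 against 29.4 in gel 5 (log2 fold change -1.30, SE 0.14, adjusted p = 0.0023), and Wnt5a was also lower (104 against 69.9, 163 against 98.9 and 203 against 113 CPM). Wnt16 was higher (18.2 against 37.1, 0.502 against 2.43 and 0.506 against 3.49 CPM), as was Rspo3, a Wnt amplifier (log2 fold change 2.06, adjusted p = 0.0262). In the BMP group 2 were higher and 3 lower of 24. Bmp2, a ligand, was at 0.254 against 1.65 CPM in gel 1, 13.9 against 61.3 in gel 4 and 13.7 against 72.5 in gel 5 (log2 fold change 2.30, SE 0.16, adjusted p = 0.000431), whereas the modulator Bmper (434 against 288, 25.5 against 13.3 and 33.5 against 14.6 CPM) and the ligand Gdf10 (349 against 115, 14.8 against 6.45 and 8.29 against 7.66 CPM) were lower. Sfrp1 and Bmp2 each separated the subsets within every gel, while their levels moved in opposite directions between gel 1 and gels 4 and 5.

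Of 18 IGF genes 2 were higher, Igfbp3 and the protease Htra1 (199.5 against 269, 166 against 255 and 170.4 against 314 CPM), and 2 were lower, Igfbp2 (8.89 against 1.91, 10.2 against 3.95 and 10.4 against 3.69 CPM) and the insulin receptor Insr (67.8 against 40.6, 88.9 against 66 and 102 against 48.1 CPM). Of 20 genes of FGF, HGF and ERK feedback 1 was higher and 3 were lower. The growth factors Fgf2 (64.9 against 41, 150.5 against 92.9 and 181 against 88.1 CPM) and Fgf7 (276 against 194, 158 against 91.3 and 166 against 81.7 CPM), the latter a ligand for epithelial cells, and the phosphatase Dusp4 (50.6 against 35.6, 126 against 95.3 and 119 against 87.7 CPM) were lower, and the feedback inhibitor Spry2 was higher (131 against 158, 35 against 66.1 and 40.8 against 88.9 CPM). Of 17 genes of the PDGF, VEGF and angiopoietin families 3 were higher, Kdr (0.635 against 3.23, 1.57 against 7.9 and 1.14 against 3.21 CPM), Pdgfd (13.6 against 26, 1.44 against 10.1 and 2.09 against 7.32 CPM) and Vegfb (10.4 against 16, 12.1 against 19.1 and 10.6 against 21.4 CPM), and the receptor Pdgfrb was lower (1067 against 716, 939 against 457 and 1388 against 722 CPM). Kdr, the VEGF receptor of endothelial cells, was also the 1 called endothelial gene. Of 15 Notch genes 1 was higher, the ligand Dll1 (2.79 against 3.42, 12 against 22 and 9.49 against 20.6 CPM), and 2 were lower, Notch2 (196 against 112, 208 against 160.3 and 202 against 127 CPM) and the target Heyl (0.762 against 1.19, 68.5 against 29.4 and 154 against 55.3 CPM). Heyl was not lower in gel 1, where it was near the detection limit, and DESeq2 did not call it (adjusted p = 0.470).

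Of 26 Hox genes, which record the site of the body a fibroblast comes from, Hoxc6 (30.1 against 59.1, 21.2 against 29.2 and 23.1 against 35.1 CPM) and Hoxb4 (4.83 against 7.9, 4.2 against 8.33 and 3.23 against 7.25 CPM) were higher and Hoxd8 (40.9 against 23.6, 18.2 against 13.7 and 22.3 against 13.3 CPM) was lower. Of 19 imprinted genes 4 were higher and none was lower: Cdkn1c, a cell cycle inhibitor (6.8 against 15.2, 12.4 against 33.6 and 5.25 against 30.0 CPM, log2 fold change 1.69, adjusted p = 0.00705), Peg10 (127 against 174, 35.8 against 60.1 and 36.3 against 64.8 CPM), Mest (9.53 against 33.5, 2.82 against 4.2 and 2.66 against 4.99 CPM) and the transcript Mirg (8.26 against 14.4, 11.7 against 16.3 and 15.5 against 22.8 CPM). Of 10 S100 genes S100a8 was higher and S100a16 lower (94.1 against 72.7, 54.3 against 36.5 and 61.8 against 46.8 CPM). In the prolactin family 3 genes were tested and Prl2c3 (6.61 against 11.8, 1.57 against 8.39 and 2.47 against 11.1 CPM) and Prl2c5 (0.508 against 1.51, 0.377 against 4.68 and 0.127 against 8.13 CPM) were higher. The Prl2c genes are near-identical copies that tumor cells also express (274 and 101 CPM for Prl2c3), so their values are uncertain.

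It was then asked whether the subset difference in gel 1 differed from that in gels 4 and 5. Gel 1 was the 1 gel without tumor cells, a single pair of libraries, so an effect of tumor cells cannot be told apart from variation between gels. A term for the difference between gel 1 and gels 4 and 5 was called for 61 of 16231 genes (0.376%), with 1265 at an unadjusted p under 0.05. The lists and checks above hold 25 of these, and Selenop is 1 more. This difference was called for all 26 with gel as a block too, and 17 of them were not called when no filter on low counts was used. The fit of this difference with gel as a block leaves only 1 residual degree of freedom. In 18 of these 26 genes the CD26+ library was the higher one in gel 1 and the lower one in both other gels, or the reverse. Among matrix genes, Eln, elastin, stood at 19.2 against 27.1 CPM in gel 1, 26.4 against 5.84 in gel 4 and 24.1 against 6.36 in gel 5 (difference of log2 fold changes -2.54, adjusted p = 0.00547). Col14a1 was at 996 against 498, 4.27 against 8.39 and 4.49 against 10.4 CPM, and Efemp1, a fibulin, at 526 against 596, 0.753 against 7.3 and 1.08 against 10.1 CPM. The CD26+ library was thus the lower one for Eln in gels 4 and 5 and for Col14a1 in gel 1.

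Growth factors and Wnt antagonists held further examples. Igf1, insulin-like growth factor, was at 2154 against 966, 14.4 against 25.4 and 20.9 against 30.8 CPM (1.83, adjusted p = 0.05), and Igfbp5, which binds it, at 52.9 against 262, 739.6 against 513 and 879 against 559.5 CPM (-2.90, adjusted p = 0.00224). Sfrp2 was at 2901 against 2059, 0.878 against 5.96 and 1.27 against 9.71 CPM (3.35, adjusted p = 0.0062), and Sfrp4 at 55 against 152, 15.9 against 12.2 and 19.9 against 11.3 CPM (-2.07, adjusted p = 0.0124). In all 4 genes the direction turned between gel 1 and gels 4 and 5, and Igf1 and Sfrp2 were far lower in both subsets of gels 4 and 5 than in gel 1. The detoxifying enzyme Ephx1 was higher in CD26+ NFs in gel 1 alone (86.1 against 261, 196 against 159 and 215 against 196 CPM, -1.81, adjusted p = 0.0221), as was the vesicular transporter Slc17a7 (0.0635 against 1.58, 6.71 against 4.07 and 6.33 against 4.58 CPM). Notch3 (28.9 against 64.7, 194 against 118 and 298 against 137 CPM) and the proteoglycan Cspg4 (2.54 against 5.6, 153 against 56.5 and 192 against 70.4 CPM), both also pericyte markers, were higher in CD26- NFs in gels 4 and 5 but not in gel 1. Selenop (486 against 602, 23.1 against 132 and 21.1 against 112 CPM) and Cp (64.9 against 122, 21 against 147 and 26.8 against 144 CPM), by contrast, kept their direction, and their difference was wider in gels 4 and 5.

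**Figure D5:**
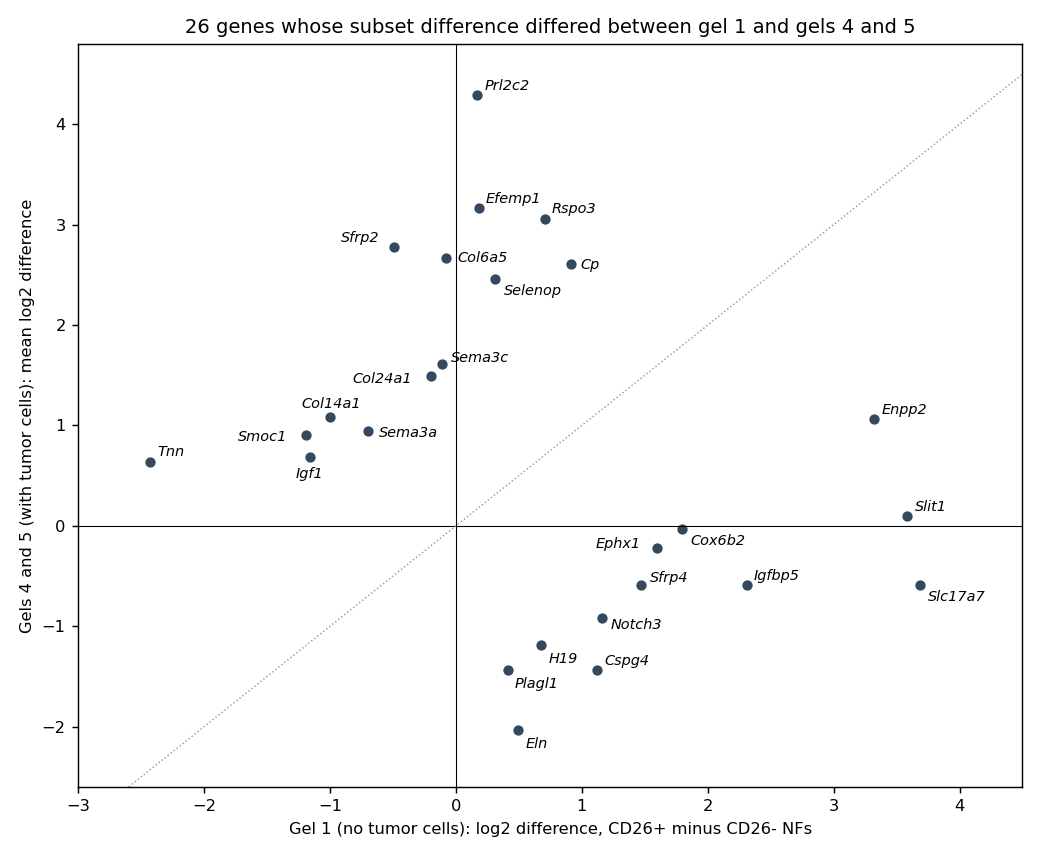
Log2 difference (CD26+ minus CD26- NFs) in gel 1 against the mean of gels 4 and 5 for 26 genes called for a difference between them, with equal differences on the dotted line. Genes in the upper left and lower right corners, such as Igf1, Tnn, Eln and Igfbp5, changed direction.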

How the data were processed

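RNA-seq libraries were prepared by the authors with a stranded poly(A) protocol. Per the labels, HISAT2 2.2.1 and the build GRCm38 were used, and the deposited values are raw read counts for 55486 genes. How reads were assigned to genes, whether by strand, and with which annotation is not given in the sources used here. For 55140 genes the ID was found in GENCODE M21, and 99.42% of these had the same position. Counts were analysed with edgeR 4.0.16 in R 4.3.3 (TMM scaling, filterByExpr, quasi-likelihood test with gel and subset as terms, Benjamini-Hochberg adjustment over all genes tested, 2-sided). Samples with the same gel number come from the same gel, and their deviations from the subset means correlated within every gel (r = 0.866, 0.733 and 0.735), although gels 4 and 5 also correlated with each other (0.678 and 0.65) and against gel 1 (-0.755 to -0.802). The difference between gel 1 and gels 4 and 5 was tested as an interaction of culture and subset. Per-gel differences are log2 CPM with a prior count of 1, 1 library against 1, with no test. DESeq2 1.42.0 was an alternative.

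The 3 gels are not replicates of 1 condition, since gels 4 and 5 held different tumor lines. It is not stated whether the gels were seeded from separate NF isolations. With gel as a block, p-values rest on how the subset difference varied between these gels, with variance estimates that edgeR moderates across genes. Floors and counts cover counting error only. Genes were named by rule: the 8 highest and 8 lowest called genes of at least 50 CPM and the 5 highest and 5 lowest of 5 to 50 CPM with the same sign in all gels, up to 4 called members of each list with the lowest adjusted p, or up to 2 of the most abundant members where fewer were called, markers, and list members called in the interaction. Gm and Rik models were counted but not named, and other genes are marked as chosen after their values were seen. The members and gene lists were chosen with earlier results of these data known. Promoter windows are from RefSeq (GRCm38.p6). Tumor libraries of gels 4 and 5 were not compared here beyond the levels of Clu. Results for some named genes are not reported here.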

Additional observations from a re-analysis of the deposited data

Results flagged for a closer look

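The difference between CD26+ and CD26- NFs was itself different between gel 1 and gels 4 and 5 in 26 genes of the lists and named genes, by edgeR's interaction test (adjusted p under 0.05). The value given for each is the log2 fold change in gels 4 and 5 minus that in gel 1, so that a positive value means a higher CD26+ level, relative to CD26- NFs, in gels 4 and 5. Matrix genes were Col24a1 (1.67), Col6a5 (3.13), Col14a1 (2.10), Eln (-2.54), Efemp1 (3.06), Tnn (3.11) and Smoc1 (2.09). Signaling genes were Rspo3 (2.40), Sfrp2 (3.35), Sfrp4 (-2.07), Igf1 (1.83), Igfbp5 (-2.90), Notch3 (-2.10), Enpp2 (-2.26) and Prl2c2 (4.26). Guidance and neuronal genes were Sema3a (1.65), Sema3c (1.75), Slit1 (-3.74) and Slc17a7 (-5.06). The others were Cp (1.69), Selenop (2.16), Ephx1 (-1.81), Cox6b2 (-1.84), H19 (-1.88), Plagl1 (-1.83) and Cspg4 (-2.57). Prl2c2 is a near-identical copy of other prolactin genes that tumor cells express at 36.5 and 38.2 CPM when grown alone, so its value is uncertain. Sema3c and Enpp2 are likewise expressed by tumor cells alone, at 461 and 346 CPM and at 188 and 104 CPM, and the part of tumor RNA in their values was not tested. Gel 1 is a single pair of libraries, so the spread behind these values comes from gels 4 and 5 only, and an effect of tumor cells cannot be told apart from variation between gels.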

How the results depend on the processing

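Another scaling (RLE, 1241 genes), a filter of 1 CPM in 3 libraries (1179 genes) and DESeq2 (1357 genes) called numbers close to the 1225 of the paired fit. With no replicate block, that is with culture in place of gel as a term, 1013 genes were called (526 higher, 487 lower), 997 of them shared, and 25 of 161 called genes named by the rule were not called, among them Top2a, Ccna2, C4b, Il1rl1, Adamts2, P4ha3, Col6a3, Itga11, Ddit3, Higd1a, Heyl, Mirg, S100a16, Thy1, Krt8, Krt18 and Mcam. With no filter on low counts 2426 of 27367 genes were called (1072 higher, 1354 lower). Leaving out genes expressed more in tumor cells left 6953 to test, with 651 called (311 higher, 340 lower). A log2 fold change above 2 as well left 130 (121 higher, 9 lower). Leaving out each gel in turn gave 17 to 2407 genes, 12 to 1255 of them higher and 5 to 1152 lower. The lowest of these counts came without gel 5 and the highest without gel 1; the cause was not tested. None of the 161 called genes named by the rule changed direction under the alternatives in which it was tested, whereas some named genes that were not called over the 3 gels, among them Tnn, Sfrp4, Col14a1, Igf1 and Notch3, changed sign when a gel was left out. DESeq2 did not call 8 of the 161 (Selenop, Ptgir, Mmp12, Heyl, Mirg, S100a16, Enpp2 and Mcam). The difference between gel 1 and the other gels was called for 395 genes with the replicate block, 98 with DESeq2, 18 with no filter and 63 with RLE, against 61. With the replicate block, the fit of that difference leaves only 1 residual degree of freedom. Genes near 3 counts in a library, such as Dpp4, were below the filter and limited by depth.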
